A study of Mus musculus with 6 samples.

Results

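The genes described here are 39 of the 21233 in the deposited count table: the enzymes that build cholesterol and fatty acids, the SREBP regulators that control them, and the LXR receptors with their sterol efflux targets. They were chosen by name, with earlier results of these data known, and all 39 listed symbols were found in the table and passed the filter on low counts. They were measured in mouse Th9 cells, CD4 T helper cells known for secreting interleukin 9, as 3 libraries from cells treated with sorafenib, which blocks RAF kinases and a number of receptor tyrosine kinases, and 3 libraries labelled as controls. The labels give no strain, age, sorafenib dose, vehicle or time. Whether replicates of a group came from different cultures or mice is not said, so the p-values speak only of how much these libraries varied, which may be technical variation.

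Sterol and fatty acid synthesis both start from acetyl-CoA. The transcription factors SREBP1 and SREBP2, encoded by Srebf1 and Srebf2, stay in the endoplasmic reticulum with SCAP and INSIG proteins while sterols are plentiful, and are cut free to activate the synthesis genes when sterols run low. LXR receptors answer to oxidised sterols and raise transcription of the genes that export cholesterol, and activated T cells raise synthesis to build membrane as they divide.

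Total counts were 36981476 to 38126521 per library, and the members had from 40 to 88164 counts each in a library. Il9, which defines the cell type, had 283, 252 and 264 CPM (read counts relative to library size, with the size scaled by the trimmed mean of M-values, TMM) in sorafenib libraries, against 177, 213 and 186 CPM in control libraries, and Cd4 had 487, 507 and 493 CPM in sorafenib libraries, against 499, 434 and 494 CPM in control libraries. Control replicate 2 stood apart: it had the lowest TMM factor, 0.922 against 0.993 to 1.03 in the other 5 libraries, and the slope of its departures from the control mean against gene length was -0.0903 log2 units per doubling of length, where control replicates 1 and 3 had slopes of 0.0529 and 0.0375. Summed B cell markers (6 genes) had 25.4 to 28.4 CPM in sorafenib libraries, against 6.70 to 14.5 CPM in control libraries, with 4 of 4 tested members higher, while Ms4a1 and Cr2 of that list averaged under 0.1 CPM. Summed CD4 T cell markers had 1324 to 1372 CPM in sorafenib libraries, against 1508 to 1531 CPM in control libraries, with 3 of 5 tested members lower. Summed stromal, endothelial and epithelial markers had 29.4 to 31.0 CPM in sorafenib libraries, against 56.8 to 60.3 CPM in control libraries, most of it Pecam1, with Col1a2, Pdgfra, Cdh5 and Krt8 averaging under 0.1 CPM. Of the neutrophil markers, Ly6g had 0 to 0.0521 CPM in sorafenib libraries, against 3.33 to 3.48 CPM in control libraries, while Mpo, the other one tested, had 0.204 to 0.515 CPM in sorafenib libraries, against 0.145 to 0.373 CPM in control libraries (adjusted p = 0.802), and Elane averaged under 0.1 CPM. The CD8 markers summed to 8.88 to 11.1 CPM in sorafenib libraries, against 6.16 to 7.08 CPM in control libraries. Most of it was Cd8b1, which was higher (adjusted p = 0.0140). Cd8a averaged 0.429 CPM in sorafenib libraries and 0.383 CPM in control libraries, with overlap (adjusted p = 0.863). The mast cell and basophil markers summed to 18.2 to 19.4 CPM in sorafenib libraries, against 16.7 to 18.03 CPM in control libraries. The part of these differences in the results below was not tested. In such bulk samples fewer cells of a type and less RNA per cell cannot be told apart.

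Sorafenib cells had less transcript of most of the sterol pathway, with 16 of the 18 sterol enzymes fitted below control. Of the 39 genes, 18 were lower and 1 was higher, taking 0.05 as the limit for the edgeR quasi-likelihood p after Benjamini-Hochberg adjustment across the 13255 genes tested. Lower calls made up 46.2% of the 39 genes and 9.43% of all tested genes, and higher calls made up 8.51% of all tested genes. The median log2 fold change, sorafenib minus control, was -0.28 over the 39 genes and -0.01 over all tested genes. In 22 genes every sorafenib library lay below every control library and in 4 every one lay above, where 18% and 18.3% of all tested genes did so. The largest falls were in the elongase Elovl6, 1.95-fold, and the desaturase Scd1, 1.86-fold, while the 11 sterol enzymes that passed fell by 1.21- to 1.55-fold. With libraries scaled by total counts alone, 10 were lower and 1 higher, and all tested genes split into 826 lower and 1496 higher, where TMM scaling gave 1250 lower and 1128 higher. With a library left out, the lower count of the 39 genes ran from 10 without sorafenib replicate 1 or 3 to 26 without control replicate 2. The lower count over all tested genes moved as well, from 684 without sorafenib replicate 3 to 2290 without control replicate 2. For the 18 sterol enzymes the lower count was 11 with all libraries, 6 with total counts only and 3 on FPKM without a filter. Their count was 6 without sorafenib replicate 1 or 3 or control replicate 1 or 3, 9 without sorafenib replicate 2 and 13 without control replicate 2.

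**Figure D1:**
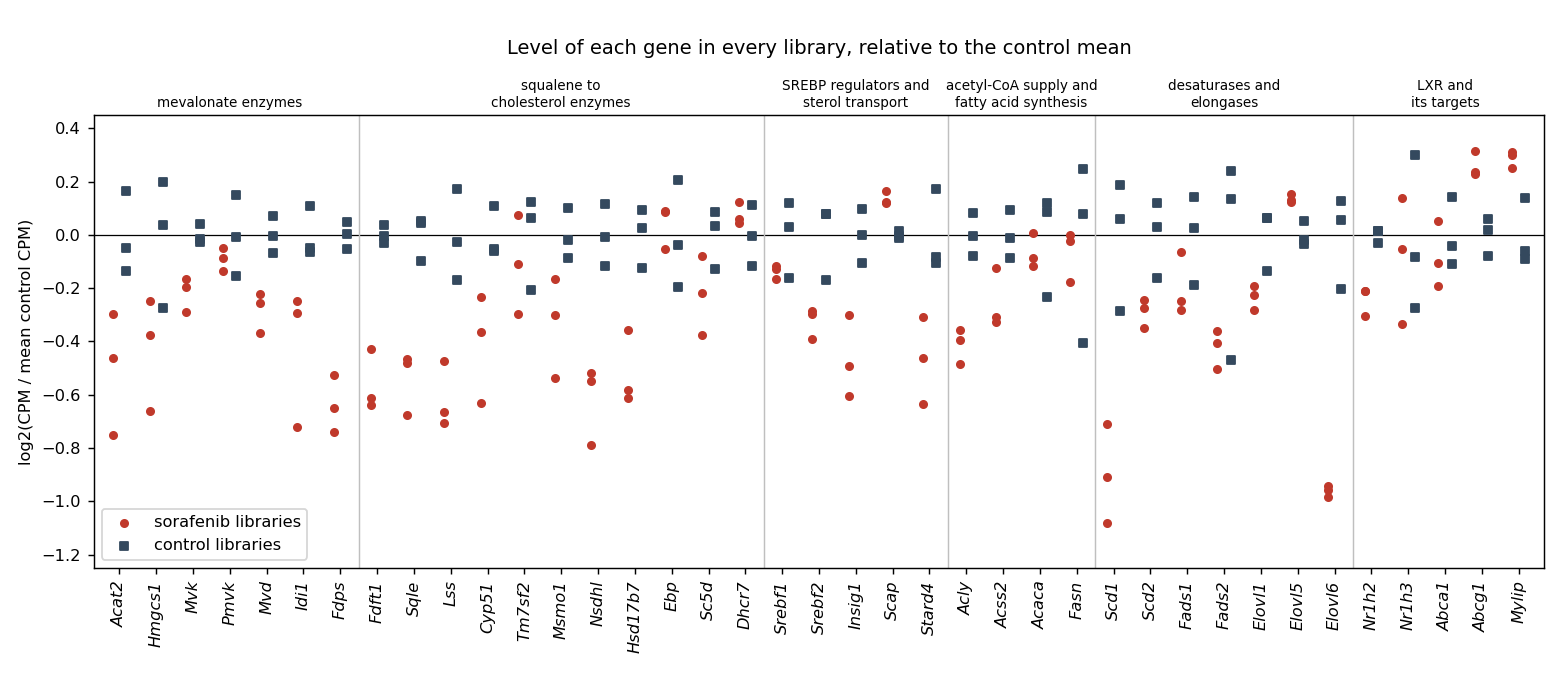
Level of each of the 39 genes in every library as log2 of its CPM over the mean control CPM, grouped by role; circles are the 3 sorafenib libraries and squares the 3 control libraries. In sorafenib libraries Elovl6 and Scd1 lie lowest, most sterol enzymes lie below the control libraries, and Scap, Elovl5, Abcg1 and Mylip lie above them.

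The reference promoters of the members were read next to their values, since many of these genes are known targets of the same factors. RefSeq promoters of build GRCm38.p6, each 250 bases before to 50 after an annotated start, matched 31 of the 39 members by symbol. The counts themselves were made on GRCm39, so these coordinates belong to the promoter table alone. Stretches of 200 bases up to the base before the start are shown for 6 members that were lower (Hmgcs1, Idi1, Lss, Nsdhl, Srebf2 and Insig1), for Ebp, a sterol enzyme that was not called, and for Elovl6, which fell the most. They lie at chr13:119690151-119690350 (+ strand), chr13:8885406-8885605 (+ strand), chr10:76531405-76531604 (+ strand), chrX:72918321-72918520 (+ strand), chr15:82147069-82147268 (+ strand), chr5:28071212-28071411 (+ strand), chrX:8193513-8193712 (- strand) and chr3:129532186-129532385 (+ strand), in that order. Capitals mark matches on either strand to a core of the sterol regulatory element, to which SREBP binds (TCACNCCA), the NF-Y box (CCAAT, read ATTGG on the other strand), the Sp1 box (GGGCGG, or CCGCCC) and the E-box (CACGTG).
Hmgcs1: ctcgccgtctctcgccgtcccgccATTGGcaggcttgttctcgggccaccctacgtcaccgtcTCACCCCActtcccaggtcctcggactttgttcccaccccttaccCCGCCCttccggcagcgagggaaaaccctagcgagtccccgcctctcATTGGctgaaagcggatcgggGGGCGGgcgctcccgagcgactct
Idi1: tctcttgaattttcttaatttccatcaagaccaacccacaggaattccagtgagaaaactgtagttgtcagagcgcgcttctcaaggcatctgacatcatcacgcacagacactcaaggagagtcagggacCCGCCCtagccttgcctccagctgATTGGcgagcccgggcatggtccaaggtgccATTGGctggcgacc
Lss: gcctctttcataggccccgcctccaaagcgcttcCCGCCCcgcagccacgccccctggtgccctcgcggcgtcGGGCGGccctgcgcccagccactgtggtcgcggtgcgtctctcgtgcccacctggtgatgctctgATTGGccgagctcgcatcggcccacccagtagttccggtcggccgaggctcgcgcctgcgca
Nsdhl: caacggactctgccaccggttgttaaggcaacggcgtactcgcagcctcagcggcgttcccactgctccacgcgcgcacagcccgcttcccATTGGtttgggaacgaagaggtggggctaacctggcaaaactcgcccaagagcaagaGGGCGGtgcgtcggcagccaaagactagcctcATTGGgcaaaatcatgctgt
Srebf2: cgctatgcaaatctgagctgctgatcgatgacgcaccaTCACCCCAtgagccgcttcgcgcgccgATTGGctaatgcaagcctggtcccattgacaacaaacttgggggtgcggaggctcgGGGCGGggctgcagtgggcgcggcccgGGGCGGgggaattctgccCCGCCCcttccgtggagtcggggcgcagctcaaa
Insig1: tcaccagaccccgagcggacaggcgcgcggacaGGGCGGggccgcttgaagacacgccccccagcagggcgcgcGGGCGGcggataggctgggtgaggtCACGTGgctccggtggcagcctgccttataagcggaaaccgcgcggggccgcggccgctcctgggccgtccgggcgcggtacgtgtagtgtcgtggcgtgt
Ebp: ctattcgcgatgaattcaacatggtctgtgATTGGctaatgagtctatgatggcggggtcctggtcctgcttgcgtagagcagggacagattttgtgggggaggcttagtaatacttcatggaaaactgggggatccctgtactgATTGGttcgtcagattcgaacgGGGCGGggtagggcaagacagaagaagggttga
Elovl6: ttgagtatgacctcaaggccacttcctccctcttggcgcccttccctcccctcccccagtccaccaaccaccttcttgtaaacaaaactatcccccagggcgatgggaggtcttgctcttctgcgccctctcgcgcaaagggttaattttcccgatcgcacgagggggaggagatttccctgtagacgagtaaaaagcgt

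The full-length classical sterol regulatory element matched no member promoter, against 0.0999% of 27025 genes with a promoter in the table, and no member matched it with any base at its middle position, against 0.27% of those genes. The shorter core, which is part of it and was tried after it gave no match, was found in Hmgcs1, Srebf2 and Msmo1, which is 9.68% of the 31 members against 4.97% of all genes. The NF-Y box was in 74.2% of the members and 41.1% of all genes, the Sp1 box in 77.4% of the members and 38.2% of all genes, and the E-box in 22.6% of the members and 8.09% of all genes. Among members with a promoter, the NF-Y box was in 10 of the 13 that were lower and in 13 of the other 18, and the Sp1 box in 11 of the 13 and 13 of the 18. The E-box was in 2 of the 13 and 5 of the 18, and the shorter core in 2 of the 13 and 1 of the 18. The Elovl6 window held none of these letters. A match is a description of the reference sequence and not evidence that a factor was bound.

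**Figure D2:**
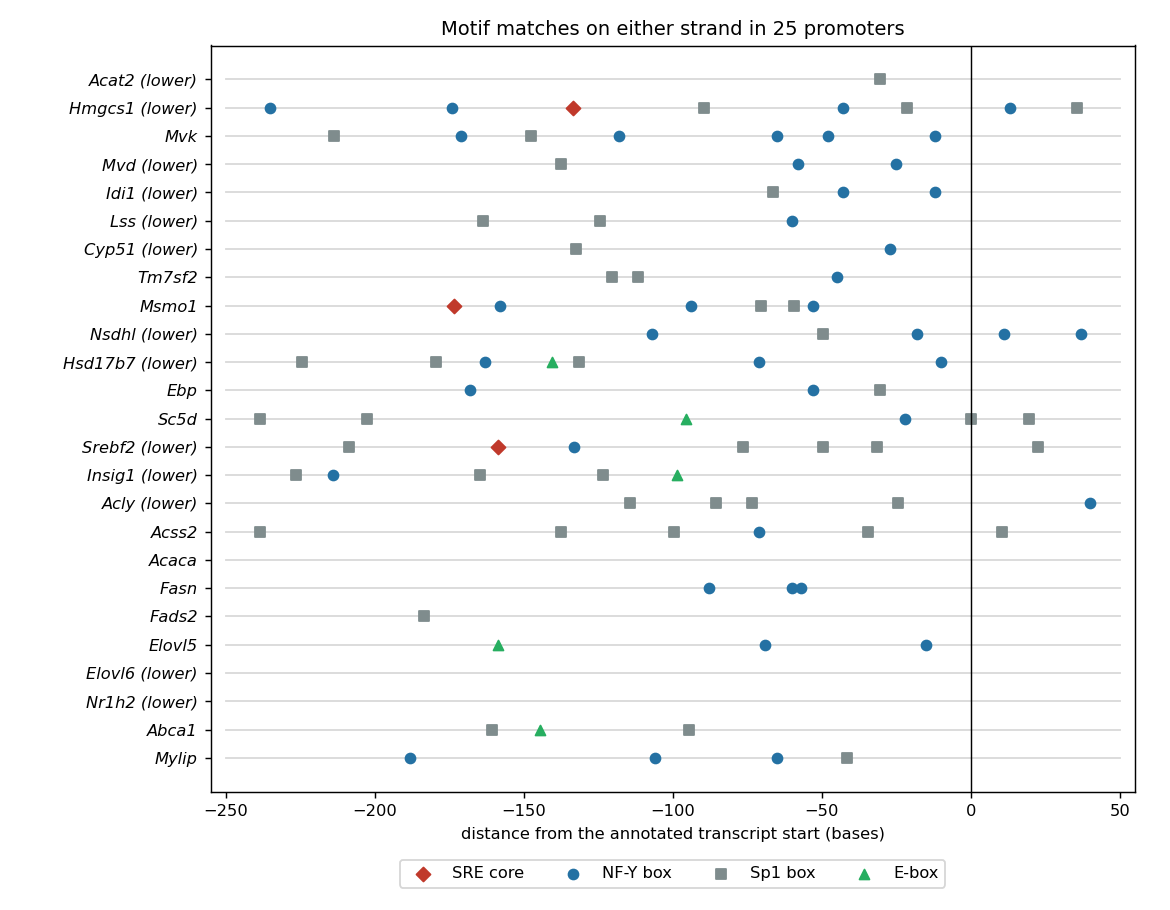
Positions of the motif matches in the 25 members with a single annotated start, in bases from that start; each row is a promoter, the words in brackets give the call with sorafenib, and each symbol is a match on either strand. NF-Y boxes are found in rows of lower genes and of genes not called, and the core of the sterol element is in Hmgcs1, Msmo1 and Srebf2.

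Enzymes of the mevalonate arm make the isoprenoid units from acetyl-CoA. Of 7, 5 were lower and 0 higher, and the median log2 fold change was -0.41. This count rested on the library set: 1 was lower without sorafenib replicate 1 or 3 or control replicate 1 or 3, 2 without sorafenib replicate 2 and 2 with the replicate block, and 1 with total counts only. The median was -0.27 without sorafenib replicate 1. Acat2, the cytosolic thiolase that joins 2 acetyl-CoA, had 25.3, 34.6 and 30.9 CPM in sorafenib libraries, against 47.7, 38.7 and 41.1 CPM in control libraries (log2 fold change -0.49 ± 0.12 SE, adjusted p = 0.0181). Hmgcs1, which adds the third acetyl-CoA, had 46.7, 62.0 and 56.8 CPM in sorafenib libraries, against 84.7, 61.0 and 75.7 CPM in control libraries (log2 fold change -0.42 ± 0.13 SE, adjusted p = 0.0491). Sorafenib replicate 2 lay above control replicate 2 for Hmgcs1, so the groups overlapped there, while they did not for Acat2. Mvd, the mevalonate diphosphate decarboxylase, had 41.3, 44.7 and 45.7 CPM in sorafenib libraries, against 53.1, 55.9 and 50.8 CPM in control libraries (adjusted p = 0.0279). Idi1, which isomerises isopentenyl diphosphate, had 13.9, 19.3 and 18.7 CPM in sorafenib libraries, against 24.7, 22.2 and 21.9 CPM in control libraries (adjusted p = 0.0481). Fdps, which condenses the units to farnesyl diphosphate, had 54.6, 63.3 and 58.2 CPM in sorafenib libraries, against 91.4, 94.3 and 88.0 CPM in control libraries (log2 fold change -0.64 ± 0.08 SE, adjusted p = 3.27e-04). Fdps fell 1.55-fold, the most in this arm, and its sorafenib libraries lay well below its control libraries. The kinases between them did not pass: Mvk had 12.7, 13.04 and 11.9 CPM in sorafenib libraries, against 15.0, 14.3 and 14.5 CPM in control libraries, without overlap (adjusted p = 0.143). Pmvk had 24.7, 23.2 and 24.0 CPM in sorafenib libraries, against 25.4, 28.3 and 22.9 CPM in control libraries, with overlap (adjusted p = 0.571).

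The arm from squalene to cholesterol closes the rings and trims the sterol. Of 11 enzymes, 6 were lower and 0 higher, with a median log2 fold change of -0.40. Fdft1, squalene synthase, had 60.9, 69.3 and 59.9 CPM in sorafenib libraries, against 91.1, 95.6 and 92.7 CPM in control libraries (log2 fold change -0.56 ± 0.08 SE, adjusted p = 7.61e-04). Sqle, squalene epoxidase, had 47.5, 54.96 and 54.4 CPM in sorafenib libraries, against 78.3, 70.9 and 78.7 CPM in control libraries (log2 fold change -0.54 ± 0.08 SE, adjusted p = 0.00141). Lss, lanosterol synthase, had 43.6, 51.1 and 44.8 CPM in sorafenib libraries, against 80.1, 63.2 and 69.8 CPM in control libraries (log2 fold change -0.61 ± 0.10 SE, adjusted p = 0.00211). These 3 consecutive steps fell by 1.45- to 1.53-fold with no overlap between groups, and Fdft1 overlaps the protein-coding gene Ctsb in the RefSeq annotation, which leaves its separate value uncertain. Cyp51, the lanosterol demethylase, had 56.4, 74.3 and 67.9 CPM in sorafenib libraries, against 94.2, 84.2 and 83.7 CPM in control libraries (adjusted p = 0.0203). Nsdhl, a sterol dehydrogenase that works with Msmo1, had 11.97, 14.1 and 14.4 CPM in sorafenib libraries, against 19.1, 20.6 and 22.4 CPM in control libraries (log2 fold change -0.61 ± 0.11 SE, adjusted p = 0.00305). Hsd17b7, the keto-reductase of the same step, had 30.8, 36.7 and 31.4 CPM in sorafenib libraries, against 50.2, 43.1 and 47.8 CPM in control libraries (adjusted p = 0.00412). Nsdhl fell 1.53-fold and Hsd17b7 1.43-fold. Msmo1, the methyl oxidase of that complex, had 24.7, 32.0 and 29.1 CPM in sorafenib libraries, against 38.4, 33.8 and 35.4 CPM in control libraries, without overlap, and missed the threshold (adjusted p = 0.0543).

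None of the late enzymes passed the test. Ebp, the sterol isomerase, had 32.6, 32.5 and 29.5 CPM in sorafenib libraries, against 26.7, 35.3 and 29.9 CPM in control libraries (log2 fold change 0.04 ± 0.11 SE, adjusted p = 0.831). Dhcr7, which makes cholesterol in the last step of one branch, had 25.1, 25.4 and 26.6 CPM in sorafenib libraries, against 24.3, 22.5 and 26.4 CPM in control libraries (log2 fold change 0.08 ± 0.09 SE, adjusted p = 0.615). Sc5d, the sterol desaturase between them, had 31.8, 39.03 and 35.5 CPM in sorafenib libraries, against 42.2, 37.7 and 43.8 CPM in control libraries (adjusted p = 0.1504). The groups overlapped for all 3, and also for Tm7sf2, a sterol reductase at 6.90 ± 0.886 CPM in sorafenib cells and 7.41 ± 0.877 CPM in control cells (SD, n = 3 each, adjusted p = 0.682 from edgeR). Whether the late enzymes differ from the earlier ones was not tested. Tm7sf2 overlaps Vps51 in the annotation.

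**Figure D3:**
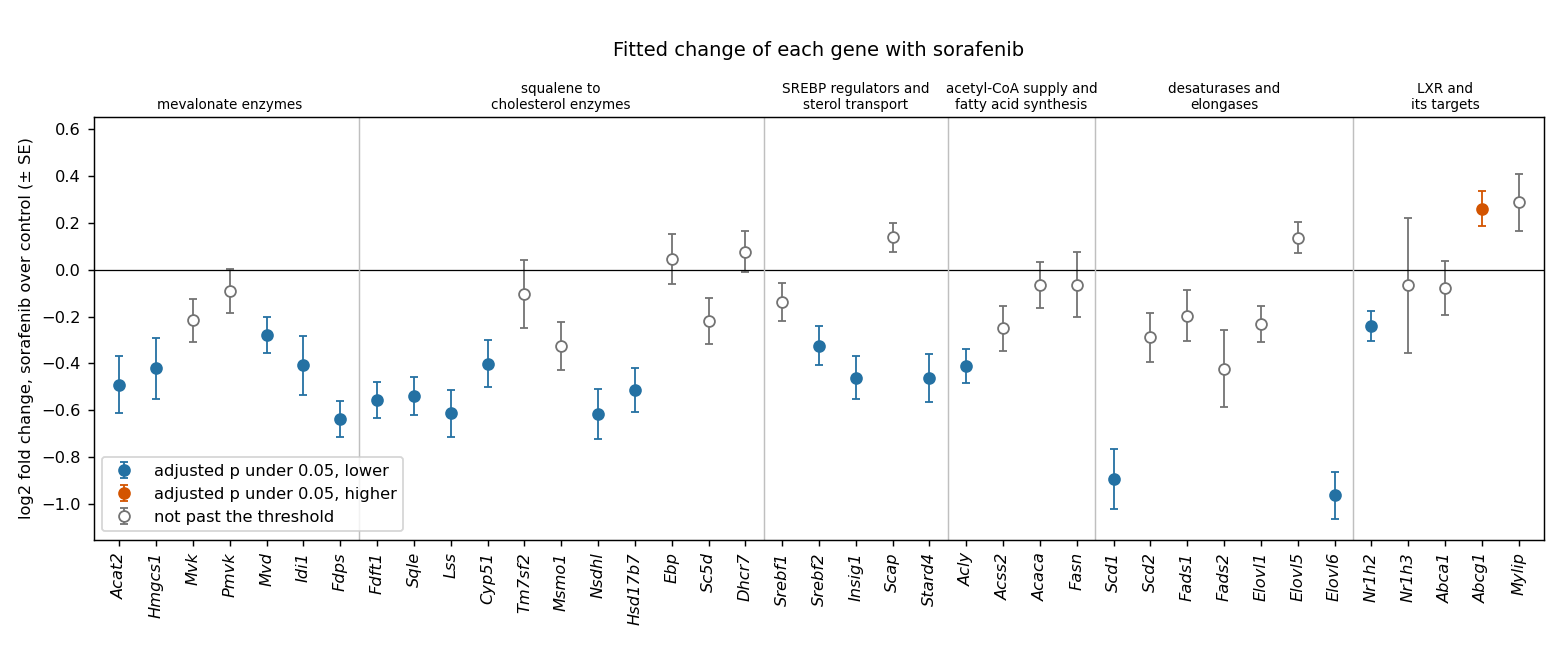
Fitted log2 fold change of each gene, sorafenib over control, with its standard error, grouped by role; filled points passed an adjusted p of 0.05. Elovl6 lies lowest at -0.96, and Abcg1 is the only filled point above 0 at 0.26.

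Among the regulators, both the factor for sterol synthesis and its feedback inhibitor were lower. Of 5 regulators and carriers, 3 were lower and 0 higher, with a median log2 fold change of -0.32, but 1 was lower without sorafenib replicate 1 or 3 or with total counts only, and 2 without sorafenib replicate 2 or control replicate 1 or 3. Srebf2, which encodes SREBP2, had 230.1, 247 and 246 CPM in sorafenib libraries, against 318, 268 and 319 CPM in control libraries (log2 fold change -0.32 ± 0.08 SE, adjusted p = 0.0211). Insig1, an SREBP target whose product holds SCAP in the endoplasmic reticulum, had 51.9, 64.2 and 56.2 CPM in sorafenib libraries, against 84.5, 73.5 and 79.0 CPM in control libraries (log2 fold change -0.46 ± 0.09 SE, adjusted p = 0.00621). Stard4, a carrier of cholesterol between membranes, had 79.0, 99.2 and 89.2 CPM in sorafenib libraries, against 138, 114 and 116 CPM in control libraries (log2 fold change -0.46 ± 0.10 SE, adjusted p = 0.0104). In all 3 every sorafenib library lay below every control library, and the falls were 1.25-fold for Srebf2, 1.38-fold for Insig1 and 1.38-fold for Stard4. Srebf1, which encodes SREBP1, had 144, 139.6 and 143 CPM in sorafenib libraries, against 170.4, 140.0 and 159.8 CPM in control libraries, and control replicate 2 lay among the sorafenib libraries (adjusted p = 0.276). Srebf1 overlaps Rai1 in the annotation. Scap, the SREBP escort, had 106, 107 and 109.8 CPM in sorafenib libraries, against 97.03, 97.5 and 98.9 CPM in control libraries, with every sorafenib library above every control library, but did not pass the test (log2 fold change 0.14 ± 0.06 SE, adjusted p = 0.164).

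Of 4 genes that supply acetyl-CoA or build fatty acids from it, 1 was lower and 0 higher, with a median log2 fold change of -0.16, and 2 were lower without control replicate 2. With all libraries, 9.43% of all tested genes were lower. Acly, which makes cytosolic acetyl-CoA from citrate, had 277, 302 and 294 CPM in sorafenib libraries, against 409, 366 and 386 CPM in control libraries (log2 fold change -0.41 ± 0.07 SE, adjusted p = 0.00368), a fall of 1.33-fold with no overlap. Acss2, which makes acetyl-CoA from acetate, had 16.1, 18.5 and 16.3 CPM in sorafenib libraries, against 19.0, 21.5 and 20.0 CPM in control libraries, without overlap (adjusted p = 0.103). The enzymes that carry out the synthesis itself were not called. Acaca, acetyl-CoA carboxylase, had 50.4, 47.3 and 46.4 CPM in sorafenib libraries, against 54.6, 42.8 and 53.3 CPM in control libraries (log2 fold change -0.06 ± 0.10 SE, adjusted p = 0.710). Fasn, fatty acid synthase, had 218, 246 and 242 CPM in sorafenib libraries, against 292, 186 and 260.1 CPM in control libraries (log2 fold change -0.06 ± 0.14 SE, adjusted p = 0.804). Control replicate 2 was the lowest of all 6 libraries for both genes, and without it Fasn was called lower (log2 fold change -0.23, adjusted p = 0.0107) while Acaca was not (adjusted p = 0.05995). Both changed sign, without a call, when libraries were scaled by total counts alone, and Acaca overlaps Tada2a in the annotation.

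Enzymes that desaturate and lengthen the fatty acids held the largest falls among the members. Of 7, 2 were lower and 0 higher, with a median log2 fold change of -0.29, and 6 were lower without control replicate 2 and 3 without control replicate 1. With all libraries, lower calls made up 28.6% of the 7 and 9.43% of all tested genes. Elovl6, which lengthens palmitate, had 16.6, 16.9 and 17.1 CPM in sorafenib libraries, against 35.8, 28.5 and 34.1 CPM in control libraries (log2 fold change -0.96 ± 0.10 SE, adjusted p = 1.40e-04). Scd1, a stearoyl-CoA desaturase, had 42.6, 54.98 and 47.9 CPM in sorafenib libraries, against 103, 73.8 and 93.7 CPM in control libraries (log2 fold change -0.89 ± 0.13 SE, adjusted p = 9.45e-04). The sorafenib libraries of Elovl6 lay close to each other and far below its control libraries, and those of Scd1 were also all lower. Scd2, its paralog on the same chromosome, had 1705, 1832 and 1796 CPM in sorafenib libraries, against 2362, 1939.5 and 2215 CPM in control libraries, also without overlap, but missed the threshold (log2 fold change -0.29 ± 0.10 SE, adjusted p = 0.0815). Paralogs can share reads, and no source used here says how such reads were counted, which makes the separate Scd1 and Scd2 values uncertain. Fads2, a desaturase of polyunsaturated fatty acids, had 10.3, 11.002 and 11.4 CPM in sorafenib libraries, against 17.2, 10.5 and 16.01 CPM in control libraries, and control replicate 2 lay among the sorafenib libraries (adjusted p = 0.106). Fads1, the desaturase that acts after it, had 16.7, 19.4 and 17.1 CPM in sorafenib libraries, against 20.7, 17.8 and 22.4 CPM in control libraries, with overlap (adjusted p = 0.256). The other elongases lay on opposite sides of 0 without passing: Elovl1 had 69.2, 65.05 and 67.7 CPM in sorafenib libraries, against 72.0, 82.8 and 82.6 CPM in control libraries (adjusted p = 0.0620). Elovl5 had 59.1, 59.6 and 60.5 CPM in sorafenib libraries, against 53.1, 53.6 and 56.4 CPM in control libraries (adjusted p = 0.20008). The groups did not overlap for Elovl1, where every sorafenib library was lower, or for Elovl5, where every one was higher. Elovl1 overlaps the mitotic gene Cdc20 in the annotation.

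LXR genes did not move together: of 5, 1 was lower and 1 higher, with a median log2 fold change of -0.07. Among all tested genes 9.43% were lower and 8.51% higher. Neither call was made when any one sorafenib replicate or control replicate 3 was left out, and the median ran from -0.10 without control replicate 1 to 0.11 without control replicate 2. Nr1h2, which encodes the broadly expressed LXRβ, had 134, 126 and 134 CPM in sorafenib libraries, against 152, 157 and 157 CPM in control libraries (log2 fold change -0.24 ± 0.06 SE, adjusted p = 0.0247), a fall of 1.18-fold without overlap. Abcg1, which exports cholesterol, had 47.7, 47.5 and 50.5 CPM in sorafenib libraries, against 38.4, 41.1 and 42.2 CPM in control libraries (log2 fold change 0.26 ± 0.07 SE, adjusted p = 0.0347), a rise of 1.20-fold without overlap. Mylip, a ubiquitin ligase that removes lipoprotein receptors, had 7.93, 7.87 and 7.61 CPM in sorafenib libraries, against 6.14, 6.01 and 7.03 CPM in control libraries, also without overlap, but did not pass (log2 fold change 0.29 ± 0.12 SE, adjusted p = 0.139). The receptor and its efflux target thus differed in sign. Nr1h3, the LXRα of macrophages and liver, had 1.03, 1.25 and 1.43 CPM in sorafenib libraries, against 1.07, 1.60 and 1.23 CPM in control libraries (adjusted p = 0.909), and Abca1, the other main exporter, had 12.2, 10.3 and 10.9 CPM in sorafenib libraries, against 11.4, 10.9 and 12.998 CPM in control libraries (adjusted p = 0.696). Both overlapped between groups. Summed macrophage, monocyte and dendritic cell markers had 7.30 to 8.75 CPM in sorafenib libraries, against 6.002 to 8.85 CPM in control libraries, with Csf1r and Cd14 averaging under 0.1 CPM. Nr1h3 overlaps Acp2 in the annotation.

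Levels per length set Scd2 apart. In FPKM, the deposited values per kilobase of gene and per total count of the library, Scd2 had 335 ± 14.3 FPKM in sorafenib cells and 389 ± 55.9 FPKM in control cells (SD, n = 3 each), while Scd1 had 10.3 ± 1.38 FPKM in sorafenib cells and 18.2 ± 3.77 FPKM in control cells. Srebf2, with 44.7 ± 2.004 FPKM in sorafenib cells and 53.2 ± 7.48 FPKM in control cells, and Fdps, with 41.3 ± 3.31 FPKM in sorafenib cells and 60.8 ± 2.01 FPKM in control cells, came next, with Srebf2 the higher in sorafenib cells and Fdps the higher in control cells. Srebf1, with 29.8 ± 0.377 FPKM in sorafenib cells and 31.2 ± 4.48 FPKM in control cells, was below Srebf2 in both groups beyond the SD. At the low end were Mylip, with 2.13 ± 0.0456 FPKM in sorafenib cells and 1.66 ± 0.192 FPKM in control cells, Abca1, with 1.10 ± 0.0873 FPKM in sorafenib cells and 1.10 ± 0.136 FPKM in control cells, and Nr1h3, with 0.576 ± 0.0951 FPKM in sorafenib cells and 0.569 ± 0.0897 FPKM in control cells. Nsdhl, Fdft1, Idi1, Acss2 and Hsd17b7 lay from 5.95 to 6.26 FPKM in sorafenib cells, and neighbours in that stretch did not differ beyond their SD. FPKM are scaled by total counts and gene length, so the 2 groups' FPKM differ by less than their TMM-scaled CPM do for the genes that fell.

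**Figure D4:**
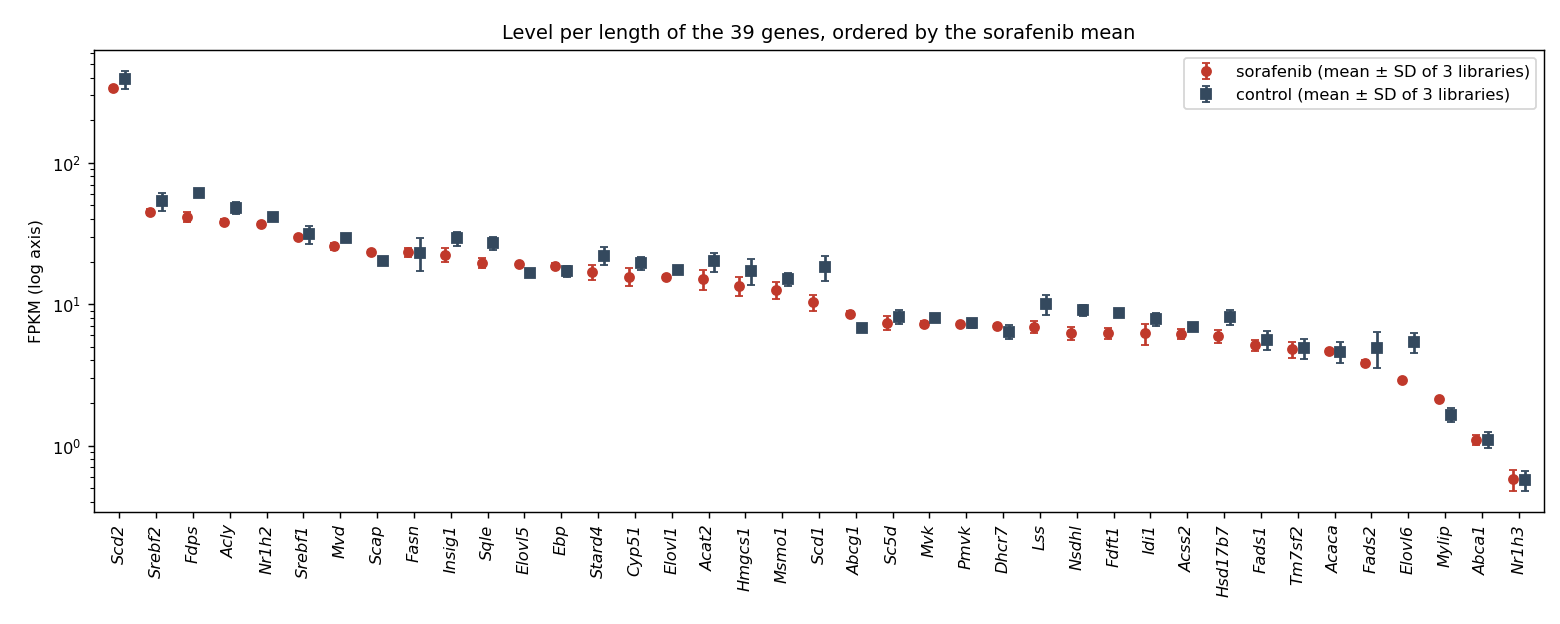
Mean FPKM of the 39 genes in sorafenib cells (circles) and control cells (squares) with the SD over 3 libraries each, on a log axis, ordered by the sorafenib mean. Scd2 lies well above the rest at 335 FPKM in sorafenib cells and 389 FPKM in control cells, and Nr1h3 lies lowest.

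Many of the genes had their extreme values in the same libraries. Of the 39 genes, 27 had their lowest sorafenib value in sorafenib replicate 1 and 22 their highest in sorafenib replicate 2. Of the control values, 24 were lowest in control replicate 2. The mevalonate enzymes averaged -0.49, -0.26 and -0.34 log2 units from the control mean in sorafenib replicates 1, 2 and 3, against 0.08, -0.03 and -0.05 in the control replicates. The squalene to cholesterol enzymes averaged -0.44, -0.23 and -0.36 in the sorafenib replicates, against 0.03, -0.06 and 0.03 in the control replicates. Desaturases and elongases averaged -0.46, -0.35 and -0.39 in the sorafenib replicates, against 0.09, -0.17 and 0.09 in the control replicates. LXR and its targets averaged 0.02, 0.00 and 0.08 in the sorafenib replicates, against -0.09, 0.03 and 0.06 in the control replicates. The SREBP regulators and carriers averaged -0.32, -0.18 and -0.24 in the sorafenib replicates, against 0.09, -0.11 and 0.01 in the control replicates. The acetyl-CoA and fatty acid synthesis genes averaged -0.24, -0.133 and -0.20 in the sorafenib replicates, against 0.10, -0.147 and 0.05 in the control replicates. Each sorafenib library was below each control library for the mean of 4 of the 6 roles. The exceptions were the acetyl-CoA and fatty acid synthesis genes, where sorafenib replicate 2 lay above control replicate 2, and the LXR genes.

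The calls were not equally firm. Those of Fdps, Fdft1, Nsdhl and Elovl6 held in 16 of 16 alternative analyses, and those of Sqle, Lss, Hsd17b7, Insig1, Acly and Scd1 held in 15 of 16, each missing on FPKM without a filter (adjusted p from 0.0529 to 0.121). Stard4 held in 10 of 16 and was lost without sorafenib replicate 1 or 3 (adjusted p from 4.01e-04 to 0.168 over the alternatives). Acat2 and Cyp51 each held in 8 of 16 and were lost without sorafenib replicate 1 or 3 and without control replicate 1 or 3 (adjusted p up to 0.198 and 0.210). Srebf2 held in 7 of 16, Mvd in 6 of 16, Idi1 in 4 of 16 and Hmgcs1 in 3 of 16, and each was lost when any one sorafenib replicate was left out and without control replicate 1 or 3 (adjusted p up to 0.280, 0.139, 0.276 and 0.375). Nr1h2 held in 7 of 16 and was lost when any one sorafenib replicate was left out and without control replicate 3 (adjusted p up to 0.130), and Abcg1 held in 10 of 16 and was also lost without control replicate 1 (adjusted p up to 0.180). Stard4, Acat2, Cyp51, Srebf2, Mvd, Idi1, Hmgcs1 and Nr1h2 were also lost with total counts only and on FPKM. Without control replicate 2 the 18 lower genes remained and Srebf1, Sc5d, Msmo1, Fasn, Scd2, Fads1, Fads2 and Elovl1 joined them, giving 26 lower and 1 higher. The direction was the same in every alternative for all 19 called genes.

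**Figure D5:**
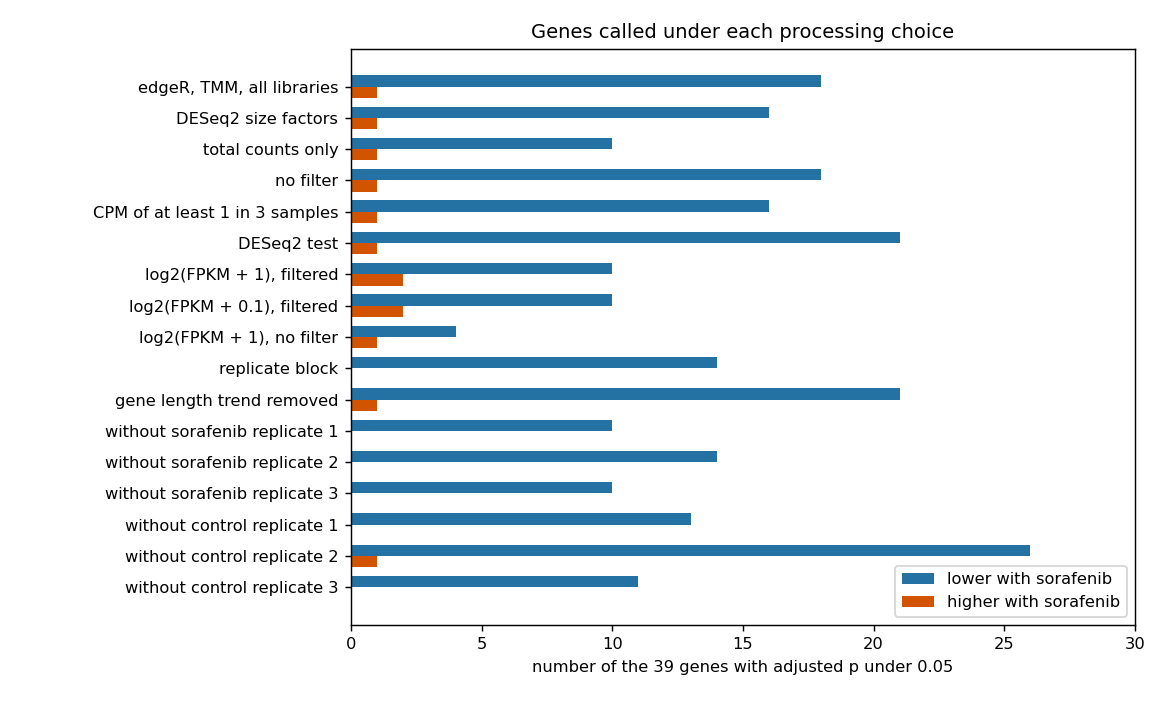
Number of the 39 genes with an adjusted p under 0.05 in each analysis, with those lower with sorafenib above those higher with sorafenib in each pair of bars. The count of lower genes runs from 4 on FPKM without a filter to 26 without control replicate 2, and the count of higher genes from 0 to 2.

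Other genes of lipid metabolism gave context to the members. Of 78 tested, from 4 further lists, 13 were lower, 8 higher and 57 not called, and their median log2 fold change was -0.07. Lower calls made up 16.7% of the 78 and 9.43% of all tested genes, and higher calls made up 8.51% of all tested genes. With a library left out, the lower count ran from 5 without sorafenib replicate 1 to 22 without control replicate 2, and the higher count from 2 without sorafenib replicate 3 to 13 without control replicate 2. The counts over all tested genes moved too. They were 714 lower without sorafenib replicate 1, 559 higher without sorafenib replicate 3, and 2290 lower and 2035 higher without control replicate 2. In sterol synthesis and uptake, 6 of 18 were lower and 1 higher. Npc2, which carries cholesterol out of lysosomes, had 454, 462 and 449.7 CPM in sorafenib libraries, against 587, 737 and 604 CPM in control libraries (adjusted p = 0.00525). Soat1, which esterifies cholesterol for storage, had 83.01, 90.1 and 86.1 CPM in sorafenib libraries, against 109, 108 and 108 CPM in control libraries (adjusted p = 0.00620). Scarb1, a lipoprotein receptor, had 46.7, 48.0 and 47.5 CPM in sorafenib libraries, against 57.4, 59.97 and 63.3 CPM in control libraries (adjusted p = 0.00696). Sorafenib libraries were the lower ones for all 3, without overlap.

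In further fatty acid and glyceride synthesis genes, 5 of 27 were lower (18.5%, against 9.43% of all tested genes) and 1 higher. Dgat1, which makes triglyceride from diglyceride, had 24.6, 29.0 and 25.7 CPM in sorafenib libraries, against 99.4, 70.6 and 81.9 CPM in control libraries (log2 fold change -1.67 ± 0.12 SE, adjusted p = 1.88e-05), a 3.18-fold fall that exceeded that of every member. Elovl4, an elongase of very long chains, had 0.592, 0.469 and 0.689 CPM in sorafenib libraries, against 1.80, 1.48 and 1.73 CPM in control libraries (adjusted p = 0.00609), a low level in both groups. Mid1ip1, an activator of acetyl-CoA carboxylase, had 26.7, 30.2 and 27.8 CPM in sorafenib libraries, against 23.4, 21.1 and 18.8 CPM in control libraries (adjusted p = 0.0148), and this rise was lost without sorafenib replicate 2 or 3 or control replicate 3 (adjusted p up to 0.0699). Slc25a1, the mitochondrial citrate carrier, had 59.5, 59.5 and 57.5 CPM in sorafenib libraries, against 70.3, 72.3 and 69.9 CPM in control libraries (adjusted p = 0.0164), lost when any one sorafenib replicate was left out and without control replicate 3 (adjusted p up to 0.109).

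Of 10 tested LXR partners and targets, 1 was lower, 2 were higher and 7 were not called, with a median log2 fold change of 0.05. Lower calls thus made up 10% of them, near the 9.43% of all tested genes, of which 8.51% were higher. Rxra, a partner receptor of LXR, had 34.6, 29.0 and 32.2 CPM in sorafenib libraries, against 22.5, 22.4 and 22.0 CPM in control libraries (log2 fold change 0.52 ± 0.09 SE, adjusted p = 0.00263). Smpdl3a, a phosphodiesterase known as an LXR target in human macrophages, had 7.44, 7.12 and 7.56 CPM in sorafenib libraries, against 3.91, 5.46 and 4.66 CPM in control libraries (adjusted p = 0.0120), lost without sorafenib replicate 1 or 3 (adjusted p up to 0.0621). Both were higher in every sorafenib library than in any control library. Rxrb, another such partner, had 84.1, 81.8 and 84.9 CPM in sorafenib libraries, against 94.6, 106 and 95.4 CPM in control libraries (adjusted p = 0.0406), lost when any one sorafenib replicate was left out and without control replicate 3 (adjusted p up to 0.154).

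Of 23 tested genes of fatty acid oxidation, the opposite pathway, 1 was lower, 4 were higher and 18 were not called. Their median log2 fold change was 0.02, and lower calls made up 4.35% of them. Of all tested genes, 9.43% were lower and 8.51% higher. Cpt1a, which admits long-chain fatty acids to mitochondria, had 52.4, 45.8 and 46.8 CPM in sorafenib libraries, against 29.5, 30.3 and 34.3 CPM in control libraries (log2 fold change 0.62 ± 0.09 SE, adjusted p = 9.52e-04), a rise of 1.54-fold without overlap. Acadl, an acyl-CoA dehydrogenase, had 67.2, 66.8 and 65.4 CPM in sorafenib libraries, against 77.3, 86.6 and 82.4 CPM in control libraries (adjusted p = 0.0124), lost when any one sorafenib replicate was left out and without control replicate 3 (adjusted p up to 0.0827). The Cpt1a call held in every alternative. Cpt1c, a relative of Cpt1a, had 4.32, 3.88 and 4.62 CPM in sorafenib libraries, against 2.49, 2.58 and 3.17 CPM in control libraries (adjusted p = 0.0284), lost when any one sorafenib replicate was left out and without control replicate 1 (adjusted p up to 0.131). Hadh, a hydroxyacyl-CoA dehydrogenase, had 102, 98.1 and 94.7 CPM in sorafenib libraries, against 58.6, 88.2 and 68.9 CPM in control libraries (adjusted p = 0.0298), lost when any one sorafenib replicate was left out and without control replicate 1 or 3 (adjusted p up to 0.129).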

How the data were processed

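RNA-seq gene counts of mouse Th9 cells were examined, 3 sorafenib and 3 control libraries grouped by sample title. Per the labels' protocols, RNA came from a TRIzol extraction and the library kit was VAHTS Universal V5. The authors deposited whole-number counts per gene and FPKM values; dividing the 2 gave each gene's length, since FPKM here is a count over its library's sum and the length. Per the submitters' processing notes, the tools were HTSeq, HISAT2, fastp, DESeq2 and R 3.2.0, and the build was GRCm39. The sources used here do not give what each did, whether strand was used or how reads with several matches were counted; overlapping genes and paralogs are therefore uncertain. Totals of 36981476 to 38126521 counts, multiplied by the TMM factors, put the value of 3 counts at 0.0766 to 0.0871 CPM, which covers counting error only.

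Genes were filtered with filterByExpr, leaving 13255 of 21233, scaled with TMM and tested with edgeR 4.0.16 (quasi-likelihood, robust) in R 4.3.3. Group alone entered the model, which left 4 residual degrees of freedom. The common dispersion corresponded to a variation of 10.9% between libraries of a group, which may be technical. The Benjamini-Hochberg method ran across all tested genes, calls were made at 0.05, and each standard error is the log2 fold change over the root of its F statistic. Alternatives were DESeq2 1.42.0 and its size factors, total counts only, no filter, CPM of at least 1 in 3 samples, limma 3.58.1 on log2(FPKM + 1), once with genes under a mean FPKM of 0.5 dropped and once with all genes, and on log2(FPKM + 0.1), a replicate block, a gene length trend removed (lowess span 0.3), and each library left out.

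The members, the further lists and the markers were chosen with earlier results of these data known, so no list was tested as a set. The further lists named 95 symbols, of which the table had 88 and the fit 78. All members are named; from each further list up to 4 of the called genes with the smallest adjusted p are named. Promoters were taken from RefSeq (GRCm38.p6) by symbol and searched on both strands; overlaps between genes come from the same annotation and are names only. Deposited columns outside the 6 libraries numbered 0.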

Additional observations from a re-analysis of the deposited data

How the results depend on the processing

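Of 624 values of the members under the alternatives, 501 kept their direction and their side of the threshold, 87 lost a call, 19 gained one and 17 changed sign, the last in genes that did not pass the test with all 6 libraries. The count of all genes called was 2378 and ran from 1243 to 4325 with a library left out, the lowest without sorafenib replicate 3 and the highest without control replicate 2. The members called lower numbered 18, and 10 to 26 with a library left out; they were 10 with total counts only, 10 on filtered log2(FPKM + 1), 10 on filtered log2(FPKM + 0.1) and 4 on log2(FPKM + 1) without a filter. The members called higher numbered 1, and 0 to 1 with a library left out; they were 2 on log2(FPKM + 1) and 2 on log2(FPKM + 0.1), both filtered, where Scap joined Abcg1, and 0 with the replicate block. Other pathway genes called numbered 21, and 8 to 35 with a library left out, and 13 on log2(FPKM + 1) without a filter. Total counts and FPKM carry no TMM factor, which moved the median of all tested genes to 0.07 with total counts only, against -0.01; the cause of the other differences was not tested.

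Sign changes occurred in 5 genes. With total counts only the log2 fold change was 0.00551 for Acaca, 0.00172 for Fasn and 0.0160 for Nr1h3. On log2(FPKM + 1), with or without the filter, it was 0.0143 for Acaca, 0.0328 for Fasn and 0.00569 for Nr1h3, and on filtered log2(FPKM + 0.1) it was 0.0195 for Acaca, 0.0356 for Fasn and 0.0125 for Nr1h3. With a library left out it ran from -0.0476 to 0.16 for Ebp, from -0.23 to 0.0761 for Fasn, from -0.19 to 0.11 for Nr1h3 and from -0.15 to 0.00520 for Abca1.

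With the replicate number as a block 14 members were called lower, all among the 18, and 0 higher, and 2139 genes in all. The labels do not say whether the numbers pair the samples. Deviations from the group means correlated at -0.107, 0.130 and 0.127 for replicates 1, 2 and 3. For sorafenib replicates 2 and 3, but not 1, the control library that correlated best had the same number. With 3 libraries a group, these correlations cannot decide whether there was a pairing. With the gene length trend removed 21 members were lower, the 18 and Msmo1, Scd2 and Elovl1, and 1 was higher. Nr1h3, at 40 or more counts a library, had the widest standard error, 0.29 log2 units.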
